A study of Homo sapiens with 8 samples.

Results

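The data concern HOTAIRM1 and the early HOXA genes HOXA2, HOXA3, HOXA4 and HOXA5, which lie side by side at the 3′ end of the HOXA cluster on chromosome 7. They were chosen by name from the count tables of an RNA sequencing experiment in NB4 cells. These are 5 genes of the 56470 names listed for each untreated library and the 56609 listed for each library treated with ATRA, and all 5 were listed in all 8 libraries. NB4 is a human acute promyelocytic leukemia (APL) line that carries the PML/RARα fusion, and ATRA (all-trans retinoic acid) is the ligand of the retinoic acid receptor used to treat this leukemia. The 4 groups had 2 libraries each. Cells stably transduced with a lentiviral control were named shNC by the labels and cells with an shRNA against KDM3B, a histone H3K9 demethylase, were named shKDM3B. Both were sequenced without treatment and, as shNC+ATRA and shKDM3B+ATRA, after ATRA. All libraries thus carry the pLVX-shRNA2-puro vector. For the control the labels name an empty vector, the methods a scrambled shRNA, and neither tells which KDM3B hairpin the sequenced cells held. The labels give 1 µM ATRA for 24 or 48 h without saying which time belongs to which library, and the methods name another concentration. The methods speak of replicate experiments, but neither they nor the labels say whether the 2 libraries of a group came from separate cultures, so p-values measure the spread between these libraries, which may be technical.

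HOX genes encode homeodomain transcription factors that give cells their position along the body axis, and in blood cells the HOXA cluster is best known for its activity in stem and progenitor cells and in leukemias. Within the cluster, the genes at the 3′ end are classical targets of retinoic acid in the embryo. HOTAIRM1 (HOXA transcript antisense RNA, myeloid-specific 1) is a long noncoding RNA next to HOXA2 that is read from the opposite strand to the HOXA genes, and it was named for its expression in the myeloid lineage. HOXA2 takes part in the patterning of the hindbrain and the second pharyngeal arch, HOXA3 in that of the third arch and its derivatives such as the thymus, and HOXA4 and HOXA5 in the axial skeleton, HOXA5 also in the lung.

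In GENCODE v44 on hg38, HOTAIRM1 occupies bases 27095647 to 27100265 of chromosome 7 on the plus strand, with 4 merged exons of 1496 bases in all. HOXA2 lies on the minus strand from 27100354 to 27102686, and its end and that of HOTAIRM1 are 88 bases apart. HOXA3 (27106184 to 27152583), HOXA4 (27128507 to 27130780) and HOXA5 (27141052 to 27143681) follow on the minus strand, the span of HOXA3 reaching over both others. Of the exon length of HOTAIRM1, 1.74% is overlapped by exons of the other strand. The exons of HOXA2 and HOXA5 are overlapped by no exon of the other strand. For HOXA3 17.3% of the exon length is overlapped on the other strand, 455 bases by HOXA-AS2 and 290 by HOXA-AS3, and for HOXA4 16.5%, 254 bases by HOXA-AS2 and 31 by HOXA-AS3. HOTAIRM1, HOXA3 and HOXA4 also share exon sequence with annotated entries of their own strand, over 43.2%, 9.29% and 31.3% of their exon length. Reads in such overlaps may have been split or set aside in counting, and the values of these genes are uncertain in this respect.

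**Figure D1:**
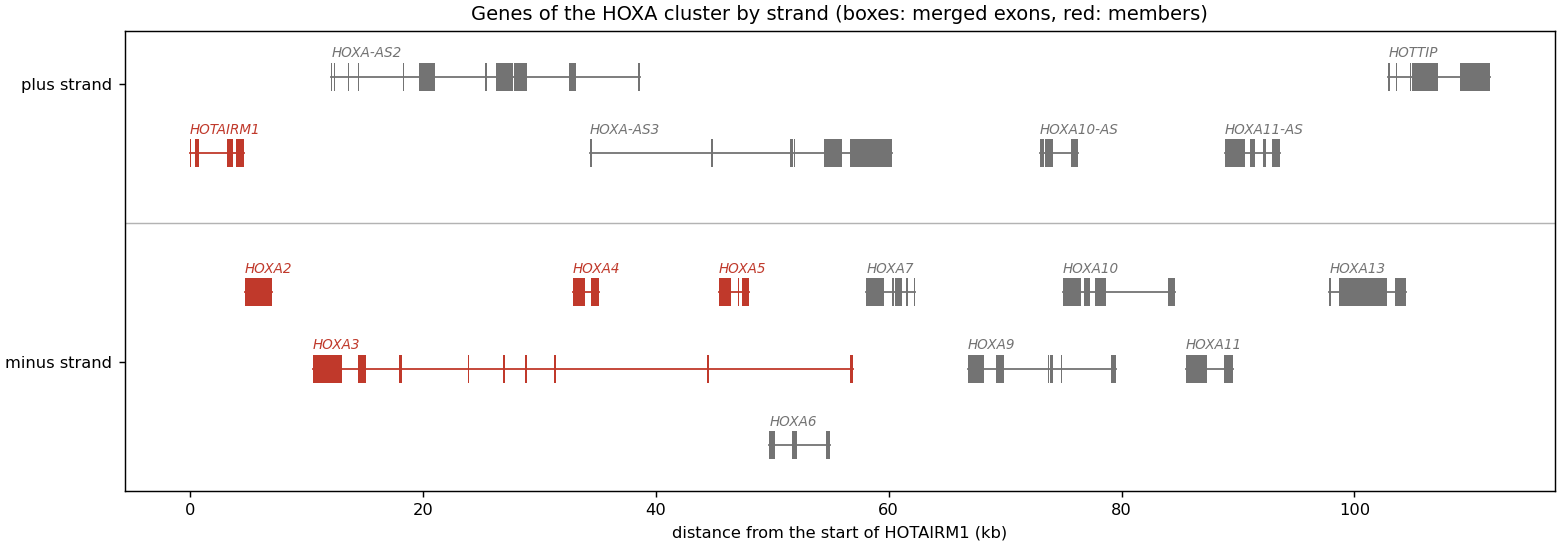
Map of the HOXA cluster by strand, with the distance from the start of HOTAIRM1 in kb on the x axis, merged exons as boxes and gene spans as lines. HOTAIRM1 (red, plus strand) ends next to the end of HOXA2, and the span of HOXA3 covers HOXA4 and HOXA5 and runs opposite to HOXA-AS2 and HOXA-AS3.

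The sequences before the start sites of the early HOXA genes are shown because retinoic acid receptors bind paired copies of a short half-site, so that a reader can see where such letters stand next to genes measured with and without ATRA. RefSeq promoter windows (GRCh38.p14) were matched by symbol for 3 of the 5 genes, with 1 window for HOXA2, 7 for HOXA3 and 1 for HOXA4. HOTAIRM1 and HOXA5 had none in the table used. Each sequence below is the 250 bases before a start site, 5′ to 3′ on the minus strand, with half-sites in capitals, and the HOXA3 window is the one farthest upstream.
HOXA2, chr7:27102684-27102933: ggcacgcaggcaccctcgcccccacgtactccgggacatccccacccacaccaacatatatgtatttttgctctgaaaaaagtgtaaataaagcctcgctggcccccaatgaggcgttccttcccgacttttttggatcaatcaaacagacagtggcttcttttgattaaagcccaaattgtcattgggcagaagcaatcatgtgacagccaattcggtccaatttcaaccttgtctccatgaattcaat
HOXA3, chr7:27152584-27152833: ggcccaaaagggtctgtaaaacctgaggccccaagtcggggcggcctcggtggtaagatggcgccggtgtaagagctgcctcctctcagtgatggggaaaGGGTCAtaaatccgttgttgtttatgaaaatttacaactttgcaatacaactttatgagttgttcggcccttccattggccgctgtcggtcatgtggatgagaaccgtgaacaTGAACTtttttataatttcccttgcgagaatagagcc
HOXA4, chr7:27130758-27131007: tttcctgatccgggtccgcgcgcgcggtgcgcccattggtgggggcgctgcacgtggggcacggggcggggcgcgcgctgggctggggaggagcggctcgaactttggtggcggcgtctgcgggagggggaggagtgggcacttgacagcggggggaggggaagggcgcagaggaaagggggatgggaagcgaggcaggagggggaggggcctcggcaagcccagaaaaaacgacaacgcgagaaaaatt

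Searched on both strands were the half-sites AGGTCA, held by 12.1% of all 35116 RefSeq windows of this length, AGTTCA, held by 8.80%, GGGTCA, held by 12.1%, and GGTTCA, held by 7.16%. The windows of HOXA2 and HOXA4 held 0 of them. The HOXA3 window held 2, GGGTCA at -150 on the strand of the gene and AGTTCA at -37 on the other strand, with positions counted back from the start site. Of the 6 other HOXA3 windows, 2 held 1 half-site each. Of all windows 33.8% held at least 1 half-site, so that single copies are common in such windows. Direct repeats of the half-site spaced by 5 or by 2 bases were in 0 of the 9 windows, and in 0.074% and 0.0313% of all windows. These matches are letters only, and no binding was measured here.

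The libraries differed in how read pairs were assigned. In the 4 untreated libraries and shNC+ATRA replicate 1, 8.49% to 9.62% of the pairs assigned to genes, to no gene or to more than 1 gene fell on no gene and 3.91% to 4.31% were ambiguous. In shNC+ATRA replicate 2 and both shKDM3B+ATRA libraries the shares were 50.02% to 51.4% and 2.39% to 2.57%. HOXA10-AS, which is overlapped by HOXA10 and HOXA9 over 62.3% of its exon length, had 0 counts in each of the first 5 libraries and 469, 265 and 375 counts in the other 3. The strand setting of the counting is not given in the sources used here, and without it reads of a gene and its antisense partner cannot be told apart. Since HOTAIRM1 and the HOXA genes lie on opposite strands, shNC+ATRA replicates 1 and 2 are given apart for each member. From 9708739 to 33017787 pairs were counted on genes per library, and 3 counts, the one-sided 95% limit for a count of 0, correspond to 0.0909 to 0.309 CPM. CPM are the deposited counts scaled to the same total on genes in every library, and intervals of a level (95%, exact, two-sided, and so wider at 0 counts) cover counting error only.

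Levels of KDM3B were 189 and 189 CPM in the shNC cells and 76.4 and 85.0 CPM in the shKDM3B cells. After ATRA they were 190 CPM in shNC+ATRA replicate 1, 113 CPM in replicate 2, and 51.3 and 55.3 CPM in the shKDM3B+ATRA cells. Of 8 promyelocyte markers, MPO, CTSG, CD33, CEBPA and CEBPE were present in all libraries, but the granule protease genes ELANE, PRTN3 and AZU1 had at most 24 counts. The summed level of the 8 markers was 4770 to 5813 CPM in shNC, 8817 to 9866 CPM in shKDM3B, 1069 to 1322 CPM in shNC+ATRA and 2619 to 3511 CPM in shKDM3B+ATRA. Most of this sum in the untreated and shKDM3B+ATRA cells was MPO, a granule peroxidase (4329 to 9395 and 2142 to 3059 CPM). MPO was the 1 marker called between the cell types, higher in shKDM3B than in shNC (log2 0.89, 1 of 7 tested) and in shKDM3B+ATRA than in shNC+ATRA (log2 1.99, 1 of 5), where the other 4 had log2 values of -0.79 to 0.11. Against untreated cells, ATRA lowered MPO, CTSG and CEBPA, which were called in both cell types. CEBPE, a transcription factor of granulocyte maturation, was called higher there (log2 2.64 in shNC and 2.13 in shKDM3B cells). Of all genes tested, 10.8% were called lower and 15.0% higher after ATRA in shNC cells. In shKDM3B cells the shares were 18.3% and 24.0%. Of 6 markers of differentiation, among them ITGAM and NCF1, all 6 were called higher after ATRA in shNC, 5 of 5 tested in shKDM3B cells, 2 of 4 tested were called lower in shKDM3B than in shNC, and 4 of 6 lower in shKDM3B+ATRA than in shNC+ATRA. Of 6 markers of other cells, the globin genes HBB and HBG1 had 0 counts everywhere, and the summed level was 17.1 to 25.6 CPM in all libraries. The part of these shifts in the results for HOTAIRM1 and the HOXA genes was not tested, and in bulk RNA fewer cells expressing a gene and less of its RNA per cell cannot be told apart.

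HOTAIRM1 was the member with the clearest response, at a far higher level after ATRA in both cell types. In the shNC cells it had 15 counts (0.761 CPM, 0.426 to 1.25) in replicate 1 and 24 counts (1.01 CPM, 0.65 to 1.51) in replicate 2. In the shNC+ATRA cells it had 254 counts (15.0 CPM) in replicate 1 and 222 counts (19.1 CPM) in replicate 2. Both ATRA libraries lay far above both untreated libraries. The fitted log2 fold change was 4.37 (standard error 0.39), a 20.7-fold rise (adjusted p = 8.34e-04, Benjamini-Hochberg, by the quasi-likelihood test of edgeR). Over 11 alternatives this adjusted p ran from 4.38e-20 to 0.158, the 2 values above 0.05 (0.158 and 0.147) coming from the fits without shNC replicate 1 or 2. Calls followed the thresholds of the study's methods, an unadjusted p under 0.05 together with a change of at least 1.5-fold. In this comparison 15.0% of the 12429 genes tested were called higher and 10.8% called lower, and of the 5 members 4 were tested, of which HOTAIRM1 alone was called, as higher. With shNC+ATRA replicate 1 as the lone treated library, whose shares of pairs outside genes were those of the untreated libraries, the log2 fold change was 4.13 (standard error 0.44), a lone library being assumed to vary like the others here and below. With replicate 2 as the lone treated library it was 4.56 (standard error 0.43).

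In the shKDM3B cells HOTAIRM1 had 19 counts (0.977 CPM) in replicate 1 and 23 counts (0.697 CPM) in replicate 2. After ATRA these cells had 110 counts (11.3 CPM) and 137 counts (13.3 CPM). Again the treated and untreated libraries did not overlap. HOTAIRM1 rose 15.8-fold (log2 3.99, standard error 0.32), and edgeR gave an adjusted p = 8.41e-06, or at most 5.69e-04 over 11 alternatives. Here 24.0% of the 12756 genes tested were called higher and 18.3% called lower, and HOTAIRM1 was the 1 member that passed the low-count filter. Treatment and the share of pairs outside genes cannot be told apart in this comparison, because both untreated libraries had the low share and both treated libraries the high one.

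Silencing of KDM3B left HOTAIRM1 without a detectable difference in untreated cells, with a fitted log2 value of -0.09 (standard error 0.46) and an adjusted edgeR p of 0.975. Its pooled level in shKDM3B was 0.89 times that in shNC, with a counting interval of 0.562 to 1.41. After ATRA, both shKDM3B+ATRA libraries lay below both shNC+ATRA libraries, and HOTAIRM1 was not called (log2 -0.50, standard error 0.27, adjusted p = 0.593 from edgeR, and 0.0108 to 1.00 over 11 alternatives). Without shNC+ATRA replicate 1, which leaves 3 libraries with alike shares of pairs outside genes, it was -0.68 (standard error 0.21, adjusted p = 0.0108 from edgeR) and was called lower, in a fit that called 1205 genes lower and 1291 higher. Without replicate 2 it was -0.30 (standard error 0.22, adjusted p = 0.264 from edgeR) and was not called. The response to ATRA did not differ detectably between the cell types, the interaction over all 8 libraries being -0.42 (standard error 0.44, adjusted p = 1.00 from edgeR).

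**Figure D2:**
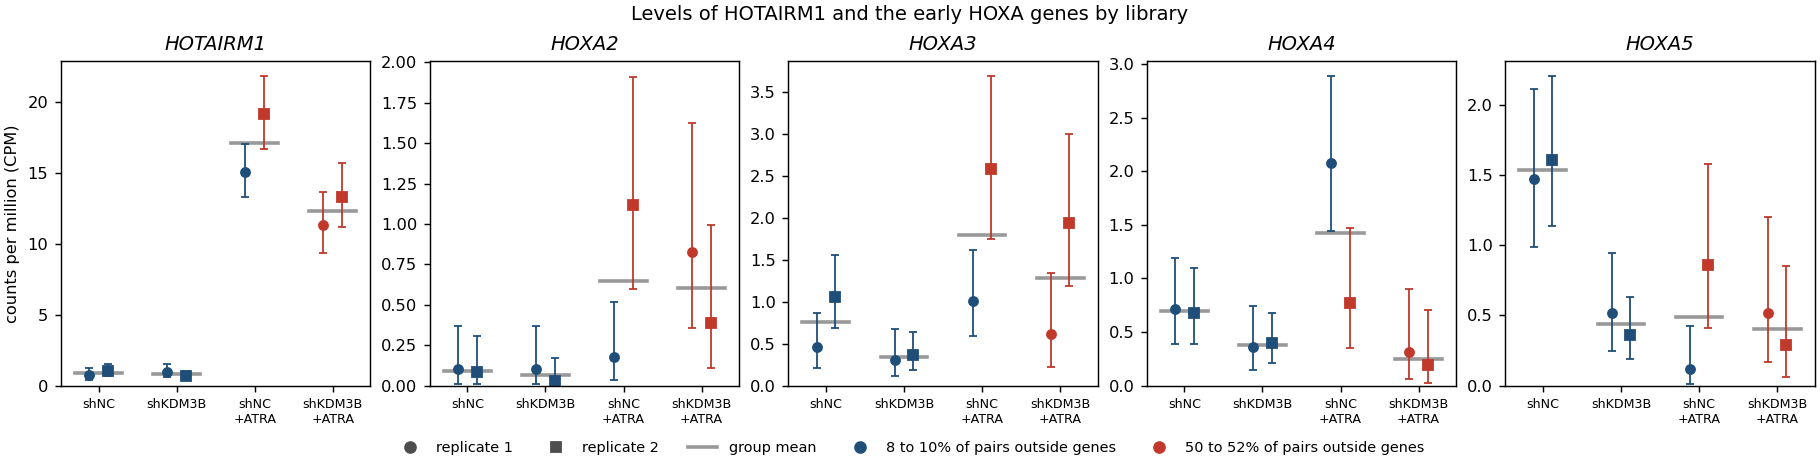
Levels of the 5 genes in each of the 8 libraries, in CPM on axes that start at 0, with exact 95% counting intervals, group means as grey lines and colors for the share of read pairs that fell on no gene. HOTAIRM1 stays at or under 1.01 CPM untreated and at or over 11.3 CPM after ATRA, while the 2 shNC+ATRA libraries lie apart for all 4 coding genes, with intervals that do not overlap for HOXA2 and HOXA3.

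HOXA5, whose exons no other gene overlaps, was the member called after silencing of KDM3B. It had 29 counts (1.47 CPM, 0.985 to 2.11) and 38 counts (1.61 CPM, 1.14 to 2.20) in the shNC cells, and 10 counts (0.514 CPM, 0.247 to 0.946) and 12 counts (0.363 CPM, 0.188 to 0.635) in the shKDM3B cells. The groups did not overlap, and all 4 libraries had the low share of pairs outside genes. HOXA5 fell 3.51-fold, with a log2 fold change of -1.81 (standard error 0.45) and an unadjusted p of 0.00373 by the quasi-likelihood test of edgeR. Over all genes the adjusted p was 0.196, which does not pass a threshold of 0.05, and it ran from 0.0181 to 0.706 over 11 alternatives. In this comparison 3.53% of the 13855 genes tested were called lower and 3.48% called higher, and of 3 members tested 1 was called lower and 0 higher. With all 8 libraries in one fit the log2 fold change was -1.79 and the unadjusted edgeR p 0.0595, so the call was lost. HOXA5 is also among the genes of a signature that the study chose on these samples, and its call is not independent evidence for that list.

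After ATRA, HOXA5 in the shNC cells depended on the library. It had 2 counts (0.118 CPM, 0.0143 to 0.428) in shNC+ATRA replicate 1 and 10 counts (0.86 CPM, 0.413 to 1.58) in replicate 2. Replicate 1 lay lowest of all 8 libraries and replicate 2 next below the shNC cells. Against shNC, the fit over both gave -1.61 (standard error 0.81, adjusted p = 0.255 from edgeR, and 0.00991 to 0.744 over 11 alternatives), which was not called. With replicate 1 as the lone treated library it was -3.57 (standard error 1.05, adjusted p = 0.00991 from edgeR), and with replicate 2 -0.69 (standard error 0.76, adjusted p = 0.524 from edgeR). The ratio of replicate 2 to replicate 1 was 7.26, with a counting interval of 1.55 to 68.2, which compares 2 libraries and not conditions. The shKDM3B+ATRA cells had 5 and 3 counts (0.515 and 0.291 CPM), near the 0.514 and 0.363 CPM of the untreated shKDM3B cells, and HOXA5 did not pass the low-count filter in either comparison of both libraries of each group that holds them. The pooled ratio of shKDM3B+ATRA to shKDM3B was 0.953, with a counting interval of 0.367 to 2.22. The interaction was 1.54 (standard error 1.25, adjusted p = 1.00 from edgeR) over all libraries and 3.49 (standard error 1.05, adjusted p = 0.115 from edgeR) without shNC+ATRA replicate 2, where it was called.

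HOXA4 was higher in one shNC+ATRA library than in all others. It had 14 and 16 counts (0.71 and 0.676 CPM) in shNC and 7 and 13 counts (0.36 and 0.394 CPM) in shKDM3B. After ATRA it had 35 counts (2.07 CPM, 1.44 to 2.88) in shNC+ATRA replicate 1 and 9 counts (0.774 CPM, 0.354 to 1.47) in replicate 2. It had 3 and 2 counts (0.309 and 0.194 CPM) in shKDM3B+ATRA. The 2 shKDM3B libraries lay below the 2 shNC libraries with and without ATRA, but the fold change without ATRA was not called (log2 -0.84, standard error 0.51, adjusted p = 0.674 from edgeR). Of the responses to ATRA, that of the shNC cells was 1.17 (standard error 0.60, adjusted p = 0.266 from edgeR, and 0.0952 to 0.831 over 11 alternatives) over both libraries and was not called. With replicate 1 as the lone treated library it was 1.64 (standard error 0.69) and was called. With replicate 2 as the lone treated library it was 0.31 (standard error 0.90) and was not called. In the shKDM3B cells HOXA4 was filtered out, and the pooled ratio of treated to untreated was 0.655, with a counting interval of 0.192 to 1.80. Between the ATRA groups it was filtered out as well. With all 8 libraries in one fit this difference was -2.52 on the log2 scale (standard error 0.73, adjusted p = 0.188 from edgeR, and 4.31e-04 to 1.00 over the 5 alternatives that tested it) and was called, but the pooled level in shKDM3B+ATRA was 0.12 times that of shNC+ATRA replicate 1 (counting interval 0.0368 to 0.309) and 0.322 times that of replicate 2 (0.0849 to 1.07). Only the first interval lies wholly below 1, and it sets libraries with different shares of pairs outside genes against each other. Across the comparison of shKDM3B+ATRA with shNC+ATRA, 2.42% of the 14281 genes tested were called higher and 4.37% called lower, and of 2 members tested 0 were called, with log2 fold changes of -0.50 for HOTAIRM1 and -0.50 for HOXA3.

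HOXA3 moved the other way between the same 2 libraries. It had 9 and 25 counts (0.457 and 1.06 CPM) in shNC and 6 and 12 counts (0.309 and 0.363 CPM) in shKDM3B, with 17 counts (1.01 CPM) in shNC+ATRA replicate 1, 30 counts (2.58 CPM) in replicate 2, and 6 and 20 counts (0.618 and 1.94 CPM) in shKDM3B+ATRA. Both shKDM3B libraries lay below both shNC libraries without ATRA, and the groups overlapped after it. The log2 fold change from shNC to shNC+ATRA was 1.33 (standard error 0.68, adjusted p = 0.263 from edgeR, and 0.0291 to 0.785 over 11 alternatives), which was not called. With replicate 2 as the lone treated library it was 1.89 (standard error 0.69, adjusted p = 0.0291 from edgeR), and with replicate 1 0.46 (standard error 0.79, adjusted p = 0.785 from edgeR). In the shKDM3B cells HOXA3 was filtered out with both libraries of each group, and in the 4 fits without a library its log2 value was 0.93 to 2.56, called in all but the one without shKDM3B+ATRA replicate 2. Its pooled level there after ATRA was 3.78 times the untreated level, with a counting interval of 1.996 to 7.33, and both treated libraries, of the high share of pairs outside genes, lay above both untreated ones. Between the untreated groups, where it was also filtered out, the pooled level in shKDM3B was 0.438 times that in shNC (counting interval 0.233 to 0.797), and of the 3 fits without a library that tested it, the one without shNC replicate 1 called it lower (log2 -1.60, adjusted p = 0.635 from edgeR).

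HOXA2 was the lowest member without ATRA, near the limit of detection. It had 2 and 2 counts in shNC, 2 and 1 counts in shKDM3B, 3 counts (0.178 CPM, 0.0366 to 0.519) in shNC+ATRA replicate 1, 13 counts (1.12 CPM, 0.596 to 1.91) in replicate 2, and 8 and 4 counts (0.824 and 0.388 CPM) in shKDM3B+ATRA. The 3 libraries with the high share of pairs outside genes were thus the 3 highest, and the treated library with the low share was at the 3-count limit. HOXA2 passed the low-count filter in none of the pairwise fits that held both libraries of each group. It passed in some fits without a library. Against shNC, it was called higher with shNC+ATRA replicate 2 as the lone treated library (log2 3.65, standard error 1.15, adjusted p = 0.0107 from edgeR) and was not called without shNC replicate 1 (log2 2.91) or 2 (log2 2.68). Between the ATRA groups, it was not called in the 3 such fits that tested it, with log2 values of -0.93 to 0.32. Its pooled ratio of shKDM3B+ATRA to shKDM3B was 10.5 (counting interval 2.83 to 57.9). Against shNC, shNC+ATRA replicate 1 had a ratio of 1.93 (counting interval 0.282 to 11.4) and replicate 2 one of 12.1 (counting interval 3.75 to 51.1).

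The interaction was tested for all 5 members, and 0 were called. Their log2 values ran from -1.68 for HOXA4 to 1.54 for HOXA5, with a median of 0.46, and all had an adjusted p of 1.00 from edgeR. Over the 13528 genes tested 1.27% were called higher and 2.72% lower. The medians over all genes tested were 0.000219 for shKDM3B against shNC, 0.0339 for shKDM3B+ATRA against shNC+ATRA, 0.0155 and 0.0446 for ATRA in shNC and shKDM3B cells, and -0.0240 for the interaction.

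**Figure D3:**
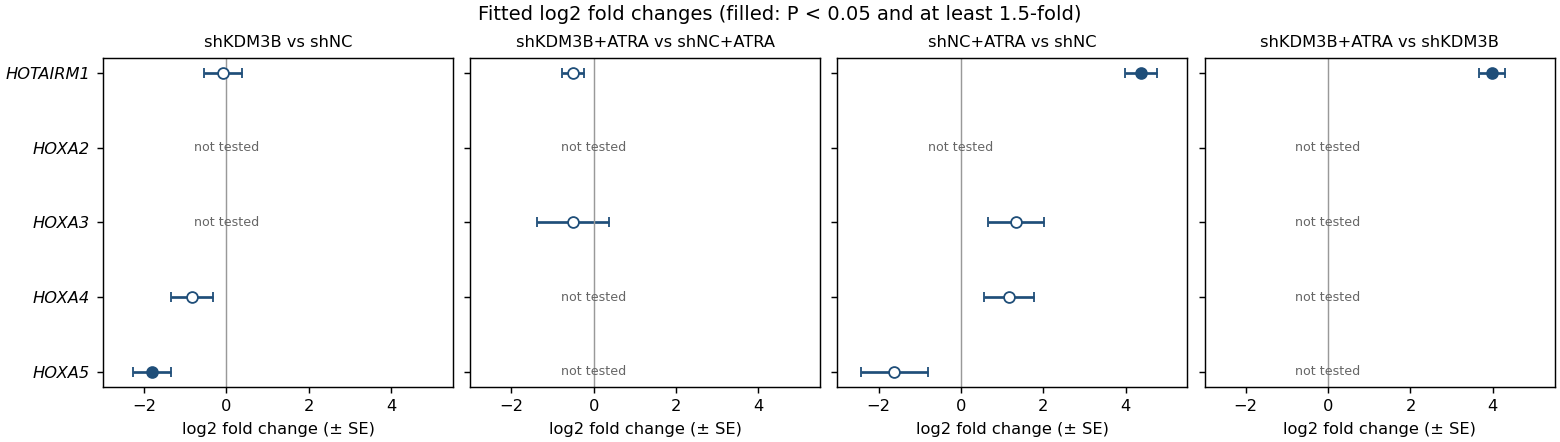
Log2 fold changes with standard errors from edgeR for the 5 members in the 4 comparisons, with filled points for genes called and "not tested" for genes below the low-count filter. HOTAIRM1 was called higher after ATRA in both cell types, and HOXA5 was called lower in shKDM3B cells.

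To compare levels between the genes, CPM were divided by exon length in kb. In shNC the order was HOXA5 (0.895 ± 0.0556 CPM per kb, SD, n = 2), HOTAIRM1 (0.593 ± 0.120), HOXA4 (0.401 ± 0.0138), HOXA3 (0.176 ± 0.0985) and HOXA2 (0.0399 ± 0.00513), and no neighbours in this order overlapped between libraries. In shKDM3B HOTAIRM1 came first (0.559 ± 0.133 CPM per kb), before HOXA5 (0.255 ± 0.0620) and HOXA4 (0.218 ± 0.0138), which overlapped each other, then HOXA3 (0.078 ± 0.009) and HOXA2 (0.0285 ± 0.0220). In shNC+ATRA the 2 libraries gave different orders below HOTAIRM1. In replicate 1 HOTAIRM1 (10.1 CPM per kb) was followed by HOXA4 (1.20), HOXA3 (0.234), HOXA2 (0.0762) and HOXA5 (0.0689), whereas in replicate 2 HOTAIRM1 (12.8 CPM per kb) was followed by HOXA3 (0.599), HOXA5 (0.50), HOXA2 (0.479) and HOXA4 (0.448). In shKDM3B+ATRA HOTAIRM1 (8.22 ± 0.921 CPM per kb) stood above 4 genes that each overlapped their neighbour, HOXA3 (0.297 ± 0.217), HOXA2 (0.260 ± 0.132), HOXA5 (0.234 ± 0.0922) and HOXA4 (0.146 ± 0.0471). Merged exons of all transcripts were used as the length, which lowers the per-kb level of genes with many transcripts such as HOXA3.

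The 4 coding members made up a small share of the RNA of their cluster. Of the counts on the 10 coding genes from HOXA2 to HOXA13, HOXA2 to HOXA5 held 2.20% and 3.09% in shNC and 1.18% and 1.13% in shKDM3B. After ATRA they held 3.76% (95% exact interval 2.86% to 4.85%) in shNC+ATRA replicate 1, 4.81% (3.70% to 6.12%) in replicate 2, and 2.13% and 3.02% in shKDM3B+ATRA. Both shKDM3B shares lay below both shNC shares, without and with ATRA. HOXA10 held the most in every library, 47.8% to 68.8%.

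Of HOXA6, HOXA7, HOXA9, HOXA10, HOXA11 and HOXA13, 4 were tested in each comparison. HOXA13, of the 5′ end, was called higher in shKDM3B cells without ATRA (log2 0.64, adjusted p = 0.455 from edgeR). It had 37.3 CPM in shKDM3B replicate 1 and 21.5 CPM in replicate 2, against 19.5 and 18.6 CPM in shNC. After ATRA, 0 of these genes were called in either cell type. HOXA9, HOXA10 and HOXA11 were called in none of the 4 comparisons, and HOXA6 and HOXA7 had at most 15 and 3 counts. Of the 5 noncoding RNAs of the cluster that are not members, HOXA-AS2, which runs opposite to HOXA3 and HOXA4, rose from 3 and 5 counts in shNC to 40 and 55 in shNC+ATRA (log2 4.34, standard error 0.64, adjusted p = 0.00548 from edgeR) and from 3 and 3 counts in shKDM3B to 15 and 25 in shKDM3B+ATRA (ratio of pooled levels 17.5, counting interval 7.36 to 50.4, adjusted p = 2.66e-04 from edgeR). It was higher in both shNC+ATRA libraries than in any untreated one. HOXA10-AS was also called higher in shKDM3B cells after ATRA (log2 12.2, adjusted p = 4.75e-07 from edgeR). It had 0 counts in shNC+ATRA replicate 1 and 469 in replicate 2, and so followed the share of pairs outside genes. HOTTIP at the far 5′ end, a noncoding RNA known for its role in keeping the 5′ HOXA genes active, rose 2.27-fold in shNC and 2.14-fold in shKDM3B cells after ATRA. SKAP2, an adaptor protein gene on the 3′ side of the cluster, rose 6.60-fold and 7.53-fold, while EVX1 at the other end had at most 10 counts. For all of these rises in the shKDM3B cells, ATRA and the share of pairs outside genes cannot be told apart.

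**Figure D4:**
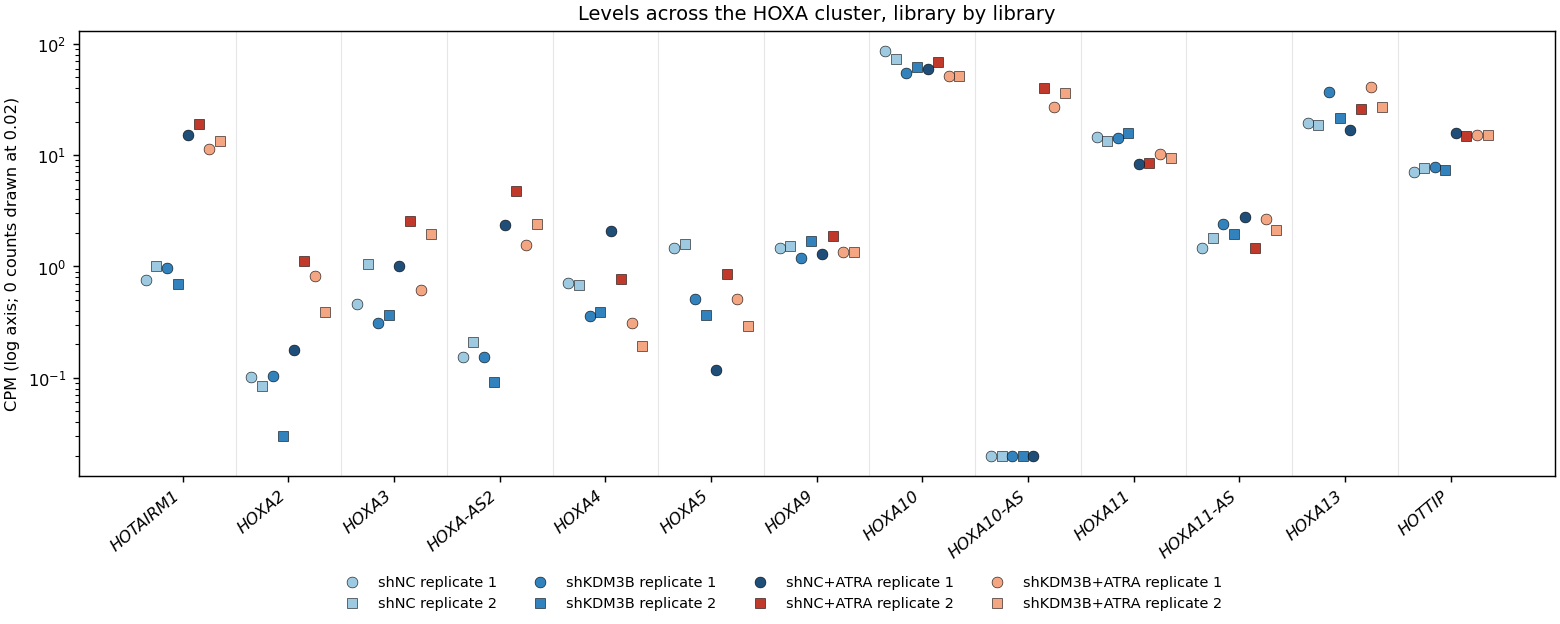
Levels of 13 genes along the HOXA cluster in all 8 libraries, in CPM on a log axis with 0 counts drawn at 0.02, ordered from the 3′ to the 5′ end. shNC+ATRA replicate 1 (dark blue) and replicate 2 (red) lie close together for HOTAIRM1 and HOTTIP and far apart for HOXA2, HOXA5 and HOXA10-AS.

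The members' relatives in the other HOX clusters were mostly at or near 0 counts, HOXC4 excepted. Of 10 paralogues from HOXB, HOXC and HOXD, 7 had 0 counts in every library, HOXB5 had 1 count in all, HOXC5 had at most 4 per library, and HOXC4 was the 1 tested and was not called in any comparison. Per length, HOXC4 had 0.972 and 0.749 CPM per kb in the 2 shNC libraries, where HOXA5 had 0.855 and 0.934, and 0.321 to 0.595 CPM per kb in the other groups. Of 9 genes for TALE homeodomain cofactors, which bind DNA together with HOX proteins, 6 were tested. None was called between the shRNAs, PBX2 was called lower after ATRA in the shNC cells (log2 -1.24, adjusted p = 0.131 from edgeR), and MEIS1 and MEIS2 were called higher and PBX4 lower in the shKDM3B cells, where 24.0% and 18.3% of all genes were. Of 9 genes for regulators of HOX chromatin, including the KMT2A complex and Polycomb subunits, all 9 were tested and 0 called in shNC cells after ATRA or between the shRNAs. In the shKDM3B cells after ATRA 4 were called lower (KMT2A, MEN1, DOT1L and WDR5) and 1 higher (EED), beside 18.3% and 24.0% of all genes, in the comparison where the share of pairs outside genes also changed.

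HOTAIRM1 and HOXA3 had a mean of at least 1 CPM and were compared with 11907 genes by their pattern over the 8 libraries, as the root mean square difference of centred log2 levels. Nearest to HOTAIRM1 were IL12RB1, a cytokine receptor chain, at 0.178, AC083899.1 at 0.191 and SLA, an adaptor protein gene, at 0.205. IL12RB1 had at most 0.101 CPM and AC083899.1 0 counts in the untreated libraries, where the 0.5 CPM added before the logarithm sets their level. SLA had 28.7 to 37.7 CPM untreated and 315 to 397 CPM after ATRA. Nearest to HOXA3 were HCST at 0.299, SPSB2 at 0.314 and JOSD2 at 0.315. These are descriptions over 8 libraries that differ in treatment, depth and the share of pairs outside genes.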

How the data were processed

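Counts in NB4 cells were taken from 8 deposited count tables, 1 per library, which the authors made by trimming with Trim Galore, aligning to hg38 with HISAT2 and counting pairs per gene with HTSeq, without normalization. Their versions and the strand setting are not given in the sources used here. Gene names follow Ensembl usage, although a RefSeq annotation is named in the methods. The 5 summary lines of HTSeq were left out of library totals.

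Groups were taken from the labels. Each pair of groups was fitted apart over all genes with edgeR 4.0.16 in R 4.3.3 (filterByExpr, minimum count 10, TMM scaling, quasi-likelihood F test, Benjamini-Hochberg adjustment), and the interaction over all 8 libraries. Standard errors are the log2 fold change over the square root of F. Counting intervals of a ratio are exact and conditional on the sum, and intervals and floors cover counting error only. Alternatives were DESeq2 1.42.0 and its size factors, library size alone, no low-count filter, a threshold on the adjusted p, a single fit of all 8 libraries, a replicate block and each library left out. Positions came from GENCODE v44 and promoter sequences from RefSeq. The members, the gene lists and the rule for named genes (all members, the called genes of each list, and the 3 genes nearest in pattern) were chosen with earlier results of these data known.

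From 9708739 to 33017787 pairs per library were counted on genes, so that most members rest on fewer than 40 counts per library. A gene of the cluster is not reported here.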

Additional observations from a re-analysis of the deposited data

How the results depend on the processing

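Of 180 values under the alternatives, for the 15 pairs of member and comparison that the reported fits tested, 163 kept their direction and their side of the threshold, 6 newly passed it, 2 no longer did and 9 changed sign. For the 10 pairs left out there by the low-count filter, alternatives tested 40 values and called 13. With p-values adjusted under 0.05, shKDM3B against shNC had 0 genes higher and 3 lower, 0 members and HOXA5 at -1.81, no longer called. The same setting gave 0 and 0 genes for shKDM3B+ATRA against shNC+ATRA, 975 and 629 for shNC+ATRA against shNC, 2929 and 2203 for shKDM3B+ATRA against shKDM3B, and 0 and 0 for the interaction. All 8 libraries in one fit gave 313 genes higher in shKDM3B, 0 members and HOXA5 at -1.79, with 1 member (HOXA4) called between the ATRA groups and 3 (HOTAIRM1, HOXA2 and HOXA3) after ATRA in shKDM3B cells. Without the low-count filter, 737 genes were lower in shKDM3B, 366 higher and 575 lower in the interaction, and 1 member (HOXA4) was called between the ATRA groups, 2 (HOTAIRM1 and HOXA2) after ATRA in shNC and 3 (HOTAIRM1, HOXA2 and HOXA3) in shKDM3B cells. In the reported fits, 2.42% of all genes tested were called higher and 4.37% lower between the ATRA groups. These shares were 15.0% and 10.8% after ATRA in shNC and 24.0% and 18.3% in shKDM3B cells. The cause of the changes under these alternatives, beyond the genes or libraries added, was not tested.

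With 1 library left out in turn, counts of members called ran from 1 to 2 in shKDM3B against shNC (2 without shNC replicate 1, HOXA3 and HOXA5), 0 to 1 between the ATRA groups, 1 to 3 and 1 to 2 after ATRA in shNC and shKDM3B cells, and 0 to 2 in the interaction (HOXA4 and HOXA5 without shNC+ATRA replicate 2). HOTAIRM1 ran from -0.32 to 0.14 in shKDM3B against shNC, where it changed sign without shNC replicate 2 (0.14) or shKDM3B replicate 2 (0.13), and from -0.68 to -0.30 between the ATRA groups. HOXA3 ran from -1.56 to 0.35 between the ATRA groups and from -0.43 to 1.48 in the interaction, HOXA2 from -0.36 to 2.29 in the interaction, and HOXA5 from -3.57 to -0.69 after ATRA in shNC and from 0.66 to 3.49 in the interaction. KDM3B ran from -0.59 to 0.073 after ATRA in shNC and from -0.64 to 0.068 in the interaction. Over the whole table, 469 to 961 genes were higher in shKDM3B against shNC, 40 to 3409 higher and 94 to 1951 lower between the ATRA groups, 900 to 2866 higher and 544 to 2276 lower after ATRA in shNC, and 121 to 1168 higher and 157 to 1264 lower in the interaction. The largest of these counts came without shNC+ATRA replicate 2 between the ATRA groups and in the interaction, and without its replicate 1 after ATRA in shNC.

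With a replicate block, 179 genes were called higher and 346 lower between the ATRA groups, no call of a member changed, and HOXA5 in shKDM3B against shNC had an adjusted p of 0.0181 from edgeR. Deviations of same-numbered libraries correlated at 0.415 for shNC and shKDM3B, 0.0359 for the ATRA groups, 0.211 for shKDM3B without and with ATRA and -0.0903 for shNC without and with ATRA. There are only 2 pairs and no label says what a number marks, and the numbers were not taken to pair the libraries. Depth limits HOXA2 to HOXA5, of which each had at most 38 counts in any library.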
